A study of Arabidopsis thaliana with 44 samples.

Results

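Of 34133 loci in the expression table, 68 were at least halved in flight in every genotype studied. A locus was taken when the mean of its 4 ground libraries was at least 5 FPKM and the mean of its 4 flight libraries was at most 0.5 of that value in each of 5 genotypes, with the values used as deposited. FPKM counts mapped fragments, corrected for transcript length and library size. Organelle genes and AT2G01021, a short open reading frame within the ribosomal RNA repeats, were left out of the rule. Of the 10017 nuclear loci that met the ground minimum in all 5 genotypes, 0.679% were halved in all 5. The flight and ground values chose these genes, so the differences between flight and ground below are descriptions and carry no test.

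The study grew Arabidopsis thaliana in the dark for 14 days on the International Space Station or in the same hardware on the ground, run 2 days later, and fixed whole seedlings in RNAlater. The genotypes, all in the Col-0 background, were WT, bzip28-2, bzip60-2, the double mutant bzip28-2 bzip60-1 and the double mutant ire1a-4 ire1b-2, written below as WT, bzip28, bzip60, bzip28bzip60 and ire1aire1b. The mutations are in sensors of the unfolded protein response, through which IRE1, bZIP60 and bZIP28 pass stress in the endoplasmic reticulum on to the nucleus. Each of the 10 groups held 4 libraries, which the series' design text calls biological replicates, and a plate pooled 70 to 80 seeds on medium with 0.5% sucrose. There was 1 flight and 1 ground run, so differences between runs and the effect of flight cannot be told apart. All values are per library or mean ± SD over n = 4 libraries unless another n is given.

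A dark-grown seedling has no photosynthesis and lives on seed reserves and on sugar in the medium. Storage oil is turned into sugar through fatty acid beta-oxidation and the glyoxylate cycle, and when carbon runs short protein and amino acids are broken down for energy. Transcripts of the enzymes and transporters of these routes are known to rise under prolonged darkness and sugar starvation in Arabidopsis, along with those of senescence regulators such as the transcription factor NAP. Many of the same genes also respond to abscisic acid, oxidative stress or pathogens. Whole seedlings were extracted, so fewer cells of a type and less RNA per cell cannot be told apart.

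The 4 promoters shown next carry the G-box, a sequence bound by bZIP and bHLH transcription factors, and belong to genes from different roles within the set. They are the 250 bases before the annotated gene start in RefSeq TAIR10.1, written 5′ to 3′ on the strand of the gene, and capitals mark every ACGT core and, where the core lies in one, the whole G-box CACGTG. GLYI7 encodes a glyoxalase I family protein, NAP a NAC transcription factor that promotes leaf senescence, M10 a late embryogenesis abundant protein, and AT4G33467 an uncharacterised protein. They were picked after the matches were known.

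GLYI7, chr1:30150647-30150896, plus strand: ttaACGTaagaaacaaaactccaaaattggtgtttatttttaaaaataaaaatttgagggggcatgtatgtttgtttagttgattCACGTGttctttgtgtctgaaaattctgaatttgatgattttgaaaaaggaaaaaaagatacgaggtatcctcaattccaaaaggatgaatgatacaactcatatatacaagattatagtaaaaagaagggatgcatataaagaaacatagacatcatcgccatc
NAP, chr1:26121830-26122079, plus strand: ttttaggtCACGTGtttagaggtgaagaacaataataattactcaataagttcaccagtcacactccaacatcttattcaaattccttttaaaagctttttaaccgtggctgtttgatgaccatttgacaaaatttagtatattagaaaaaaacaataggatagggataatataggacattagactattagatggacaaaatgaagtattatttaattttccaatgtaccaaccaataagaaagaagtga
M10, chr2:17209447-17209696, plus strand: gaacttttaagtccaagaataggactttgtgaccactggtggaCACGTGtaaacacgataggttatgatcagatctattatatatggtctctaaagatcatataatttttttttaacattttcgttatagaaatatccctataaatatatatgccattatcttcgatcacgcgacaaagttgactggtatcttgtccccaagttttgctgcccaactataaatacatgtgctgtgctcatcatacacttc
AT4G33467, chr4:16102221-16102470, minus strand: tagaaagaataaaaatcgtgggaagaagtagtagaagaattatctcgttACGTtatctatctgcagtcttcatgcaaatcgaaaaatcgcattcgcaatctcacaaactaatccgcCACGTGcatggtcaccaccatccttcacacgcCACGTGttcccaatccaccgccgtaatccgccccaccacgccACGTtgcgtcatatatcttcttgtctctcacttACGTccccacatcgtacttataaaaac

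Of 13 motifs searched on both strands, the ACGT core was present in 45 of the 68 promoters (66.2%), against 44.4% of the 9800 promoters of loci with a ground mean of at least 5 FPKM and 44.1% of all 27438 promoters. The G-box, which contains that core, was in 11 member promoters (16.2%, against 7.67% and 6.49%). These were NAP, GLYI7, M10, CYCP2;1, CYP81D11, AT4G25580, AT4G27657, AT4G33467, AT4G37220, AT5G15190 and AT5G39520. The promoter of AT4G33467 held the G-box at 2 places and 5 ACGT cores in all. TGACG, the core of as-1 type elements, was in 22 promoters (32.4%, against 19.3% and 18.6%), and TGACGT, which contains both TGACG and ACGT, was in 10 (14.7%, against 8.36% and 7.69%). The W-box form TTGACT stood in 30.9% of member promoters against 18.9% and 19.1%, whereas the form TTGACC stood in 10.3% against 12.2% in both. TATCCA, known from sugar-regulated promoters, was in 23.5% against 15.5% and 13.6%. The telo-box AAACCCTAA was in none, against 1.8% and 2.61%. The ACT motif ACTCAT stood in 11.8% against 11.5% and 12.3%, the heat shock element core GAANNTTC in 10.3% against 9.08% and 9.55%, and the ABRE core ACGTGG in 11.8% against 9.43% and 8.23%. The NAC core CACGCA stood in 5.88% against 3.05% and 3.17%, and the evening element AAAATATCT in 4.41% against 2.45% and 2.36%. These matches describe the letters of the windows, and binding was not measured. The median GC content was 31.2% in the promoters of the members and in those of the expressed loci. The genes were short, with a median length of 1582.5 bases in the annotation against 2424 bases for expressed loci.

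AT2G01021 alone took 36.1 to 89.9% of all FPKM in the ground libraries and 2.97 to 47.2% in the flight libraries, and its part in the values of the members was not tested. Results are also given after dividing each library by a median-ratio factor taken over 14104 genes that exceed 1 FPKM in every library, called rescaling below. On the deposited scale the median locus with at least 5 FPKM on the ground was higher in flight by 0.24 in bzip60 to 0.90 in bzip28 on the log2 scale, and after rescaling it was between -0.10 and -0.03. The transcripts of the disrupted genes were checked first. IRE1A was at 30.3 ± 3.3 FPKM in WT on the ground and 1.05 ± 0.381 in ire1aire1b. IRE1B was at 5.73 ± 1.21 and 2.35 ± 0.812 on the ground, and at 9.4 ± 0.827 and 5.25 ± 0.656 in flight. On the ground bZIP60 was at 48.9 ± 5.33 in WT, 13.5 ± 1.48 in bzip60 and 9.18 ± 1.4 in bzip28bzip60. The bZIP28 transcript was at 20.9 ± 1.41 in WT and 2.57 ± 0.69 in bzip28bzip60 on the ground. It was higher, at 43.7 ± 16.5, in the ground libraries labelled bzip28. In flight it was at 22.9 ± 1.57 in WT and 108 ± 16.9 in the libraries labelled bzip28. The other flight means were 23.1 ± 1.4 in bzip60, 24 ± 1.42 in ire1aire1b and 5.23 ± 0.295 in bzip28bzip60. The label of bzip28bzip60 names the same bzip28-2 allele. Whether a wrong label or a partial transcript of the disrupted gene lies behind the high values was not tested. Below, bzip28 means the libraries with that label.

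The 68 genes together made up a small share of each library, and that share differed between the conditions. Leaving AT2G01021 out of the total, their summed FPKM was 8546 to 12642 per 1000000 in the 20 ground libraries and 1651 to 2450 per 1000000 in the 20 flight libraries, which is 1.02% and 0.193% on average. No flight library reached the lowest ground library, which stood 3.49 times above the highest flight library. The share of AT2G01021 overlapped between the conditions. In 4 flight libraries it took 37.1 to 47.2% of the FPKM and the members summed to 1698 to 2049 per 1000000. In 2 bzip60 ground libraries it took 36.1 and 44.1%, and the members summed to 9063 and 9397 per 1000000. The rule chose the members from means of these same libraries and so favoured this separation, and the part of AT2G01021 was not tested.

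**Figure D1:**
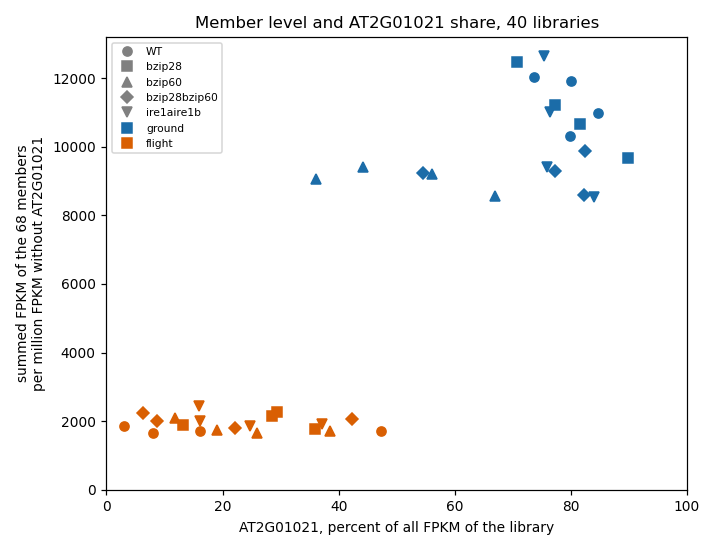
Each point is 1 of 40 libraries, with the share of AT2G01021 in percent on the horizontal axis and the summed FPKM of the 68 members per 1000000 FPKM without that locus on the vertical axis. Colour gives the condition and shape the genotype. Flight libraries lie between 1651 and 2450 and ground libraries between 8546 and 12642. The rule chose the members from means of these same libraries.

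On the deposited scale the median member was 3.72-fold lower in flight in WT and 4.99-fold in bzip60, and 2.99-fold lower in both bzip28 and bzip28bzip60 and 2.96-fold in ire1aire1b. On this scale halving was rare in each genotype by itself, at 2.3% of loci in WT and 4.65% in bzip60, while bzip28 had 1.54%, bzip28bzip60 1.58% and ire1aire1b 1.82%. It was more common on other scales. The rule, which asks for halving in all 5 genotypes, was met by 506 loci on rescaled values. Per 1000000 FPKM without AT2G01021 it was met by 545 loci. After rescaling all 68 genes were at most 0.5 of ground in all 5 genotypes. The rule favoured this, as the mean log2 factor was higher in flight than on the ground in every genotype. Dividing by these factors lowered flight relative to ground, least in bzip60 (0.41 against 0.14). The member medians were then 7.06-fold lower in WT, 6.04-fold in bzip60 and 5.68-fold in bzip28, with 5.53-fold in ire1aire1b and 4.82-fold in bzip28bzip60. The order of the genotypes therefore depended on the scale. As deposited, bzip60 had the lowest ratio for 51 members and WT for 16. After rescaling WT had the lowest ratio for 41 members, bzip60 for 12, and bzip28bzip60 the weakest for 37.

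**Figure D2:**
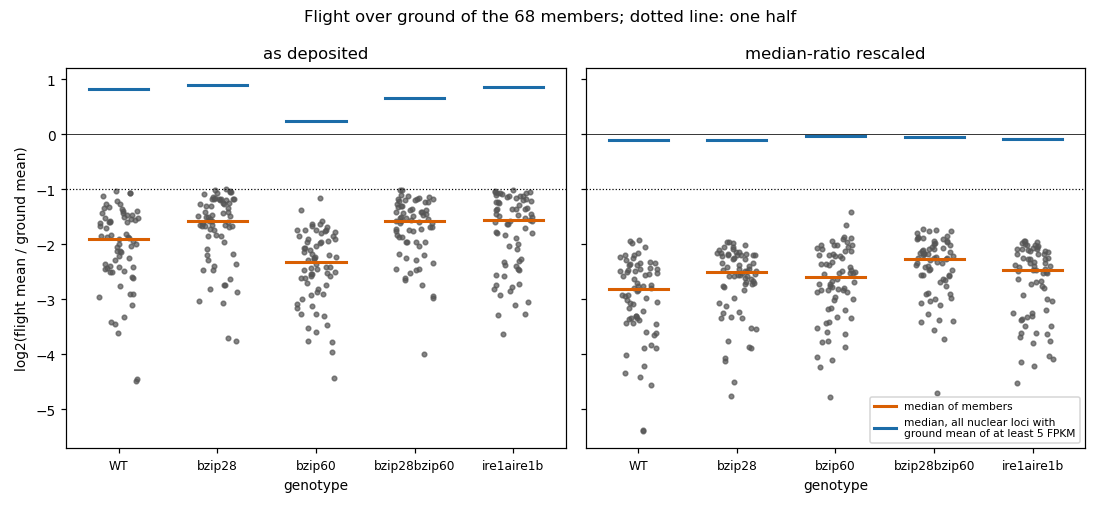
Each grey point is 1 of the 68 members, with the log2 ratio of the flight mean to the ground mean (n = 4 libraries each) by genotype, as deposited on the left and rescaled on the right. Orange lines are member medians, from -2.32 to -1.57 as deposited and from -2.82 to -2.27 rescaled. Blue lines are medians of all nuclear loci with a ground mean of at least 5 FPKM.

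The separation of single libraries was uneven between genotypes. All 4 flight libraries lay below all 4 ground libraries for 63 members in WT (3.71% of the 10017 loci did so), 67 in bzip60 (11.7%), 65 in bzip28bzip60 (3.04%), 41 in bzip28 (0.649%) and 43 in ire1aire1b (1.36%). In the 2 genotypes with fewest separated members, 1 ground library was low for many genes. Replicate 1 of bzip28 on the ground was the lowest of 20 ground libraries for 33 members and replicate 1 of ire1aire1b for 24, and AT2G01021 took 89.9% and 83.9% of their FPKM. After rescaling they were lowest for 2 and 12 members. In 30 members the groups did not overlap in any of the 5 genotypes, and in 19 they did not overlap in 4. The rule favours such separation, and how many of the 10017 loci show it in 5 or 4 genotypes was not counted.

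For 23 members all 20 flight libraries lay below all 20 ground libraries, and these were 0.23% of the 10017 loci, with no other such locus among them. Of the 23, 6 belong to carbon and storage reserves (BETA-TIP, M10, ICL, DIN2, AGT and AT5G56100), 4 to redox and detoxification (GLYI7, BCB, AT1G30700 and AT1G30730) and 3 to amino acid breakdown and transport (NIT2, AAT1 and GAT1_2.1). The members nearest the limit were AT4G33467 with a ratio of 0.495 in bzip28, the sugar transporter gene SWEET2 with 0.497 in bzip28bzip60 and SDR3 with 0.499 in bzip28. Just outside lay the tyrosine aminotransferase gene TAT7 with 0.501 in bzip28bzip60, the aminotransferase gene AGT3 with 0.509 in bzip28 and the stomatal patterning gene TMM with 0.512 in ire1aire1b.

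**Figure D3:**
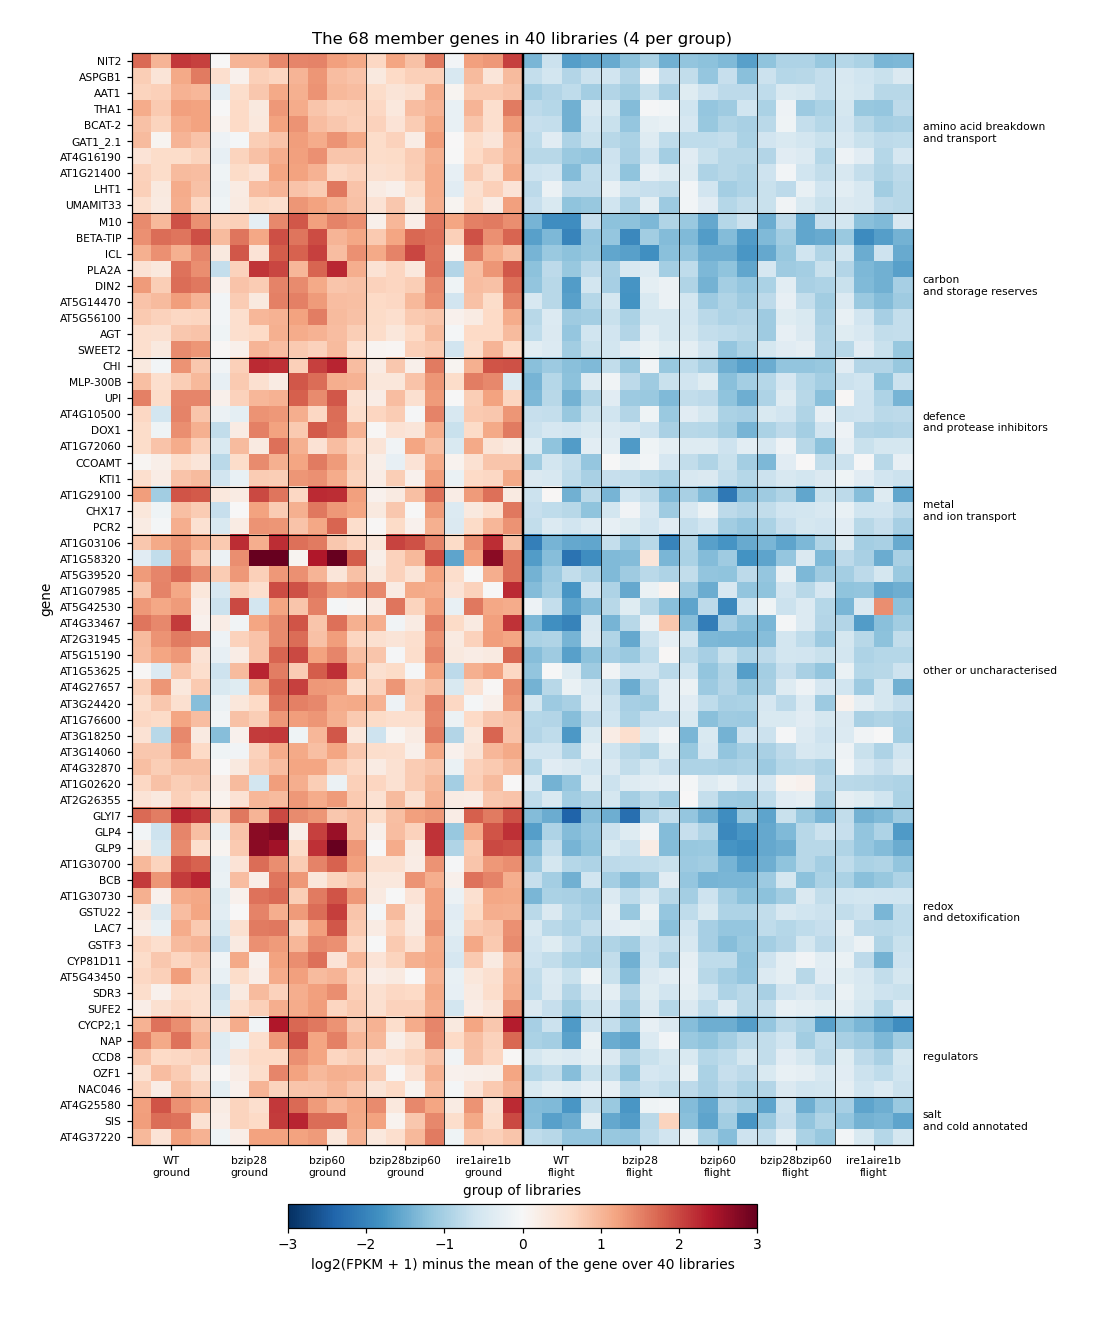
Rows are the 68 members grouped by role and columns are the 40 libraries, with ground on the left and flight on the right of the thick line, 4 libraries per group. Colour is log2(FPKM + 1) minus the mean of the gene over the 40 libraries, with red above and blue below the mean. Ground columns are mostly red and flight columns mostly blue, and replicate 1 of bzip28 and of ire1aire1b are the palest ground columns.

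Of the 68 loci, 67 are annotated as protein-coding and AT2G26355 as a long non-coding RNA. They were sorted by annotation into 8 roles after their values had been seen. There were 13 genes of redox and detoxification, 10 of amino acid breakdown and transport, 9 of carbon and storage reserves, 8 of defence and protease inhibition, 5 regulators, 3 of metal and ion transport, 3 annotated for salt or cold, and 17 others. The median of the mean log2 ratio over genotypes was lowest for salt and cold (-2.35) and carbon and storage (-2.02) and highest for amino acid genes (-1.51) and regulators (-1.43). For the whole set it was -1.78 as deposited and -2.53 rescaled, and 25 genes were at -2 or lower.

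Among carbon and storage genes, ICL encodes isocitrate lyase, an enzyme of the glyoxylate cycle, on chromosome 3 from 7652487 to 7656053 in TAIR10.1. Its FPKM in WT was 186, 230, 188 and 246 on the ground and 33.2, 40.8, 37.2 and 40 in flight. Over all genotypes it ranged from 92.3 through a median of 230 to 372 in the ground libraries and from 24.3 through 34.9 to 60.6 in the flight libraries. No flight library reached any ground library, although the ground libraries of bzip28 split into 109 and 119 against 328 and 316. The mean fold was smallest in ire1aire1b, 3.97, and largest in bzip60, 8.46.

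BETA-TIP encodes a tonoplast aquaporin known from the protein storage vacuoles of seeds. It stood at 33.8, 42, 39.9 and 50.7 FPKM in WT on the ground and at 3.37, 4.32, 2.41 and 5.04 in flight. Across genotypes its fold ran from 7.93 in bzip28bzip60 to 11 in WT. M10 was lower still, at 8.76, 6.14, 12.6 and 8.4 FPKM in WT on the ground and 0.39, 0, 0 and 1.25 in flight, and both zeros are listed zeros in WT. Both genes are known from maturing seeds. Read beside them, 12 other seed storage and late embryogenesis genes summed to 0 to 7.59 FPKM in the ground libraries, with a median of 0.488. In flight these 12 genes summed to 0.202 to 1.41, with a median of 0.760. The highest sum was in a bzip28 ground library, and the sums of the other 4 genotypes stayed at or below 1.41. The part of seed tissue in the values of BETA-TIP and M10 was not tested.

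DIN2, a beta-glucosidase gene named for its induction in darkness, stood at 99, 67.4, 130 and 122 FPKM in WT on the ground and at 17, 22.1, 11.8 and 27.3 in flight. Its 20 ground libraries ran from 36.6 through 74.5 to 130 and its 20 flight libraries from 11.1 through 19.9 to 35.2, a narrow gap with no overlap. AGT, for an alanine:glyoxylate aminotransferase, was among the least reduced, 2.5-fold on average, and after rescaling its ground libraries spanned 1.49-fold, the narrowest spread of the 68 genes. AT5G56100, annotated as a glycine-rich oleosin family protein, had a ground mean of 177 FPKM and a flight mean of 62.9. PLA2A, for a phospholipase A, and AT5G14470, for a GHMP kinase family protein, had mean log2 ratios of -2.60 and -1.91, and SWEET2 of -1.32.

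**Figure D4:**
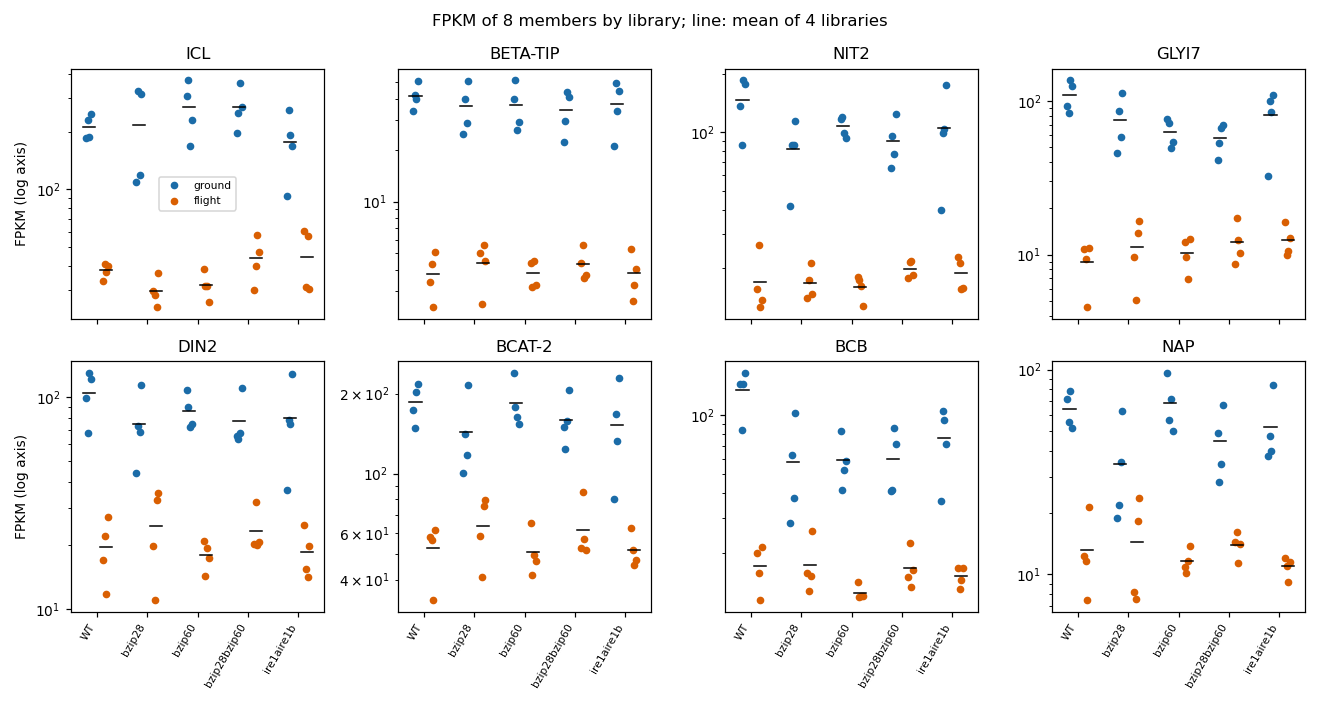
FPKM on a log axis of 8 members by genotype, with blue points for ground and orange points for flight libraries (4 each) and a black line at the mean. For ICL, BETA-TIP, NIT2, GLYI7, DIN2 and BCB every orange point lies below every blue point of the panel, and for BCAT-2 and NAP the ranges over all genotypes overlap. BCB is highest in WT among the ground means.

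The amino acid genes included several steps of breakdown. BCAT-2, a branched-chain aminotransferase gene, was at 173, 148, 203 and 217 FPKM in WT on the ground and 57.8, 56.4, 33.5 and 61.7 in flight, and AT1G21400, for an E1 alpha subunit of the branched-chain keto acid dehydrogenase, was at 90.2, 81.9, 108 and 106 and at 35.5, 36.8, 21.8 and 32. THA1, for threonine aldolase, was at 73.8, 58.8, 81.2 and 79.5 and at 19.3, 18.3, 11.9 and 23.9. Flight and ground libraries of these 3 genes did not overlap within any genotype, and their weakest ratios in the 5 genotypes were -1.18, -1.18 and -1.06 on the log2 scale. AT4G16190, a papain family cysteine protease gene, was the most abundant member, with a ground range of 432 to 1317 FPKM and a flight range of 225 to 455. NIT2, a nitrilase gene, was the most reduced of this role. It was at 137, 86.5, 186 and 177 FPKM in WT on the ground and at 15.6, 26.4, 12.5 and 13.7 in flight, and no flight library of any genotype reached the lowest ground library at 39.7. NIT1, its tandem relative, is similar in sequence, and how reads that fit both were divided is not given in the sources used here. The asparaginase gene ASPGB1, the glutamine amidotransferase-like gene GAT1_2.1 and the transporter genes AAT1, LHT1 and UMAMIT33 had mean log2 ratios of -1.82, -1.46, -1.72, -1.33 and -1.32.

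Genes of redox and detoxification formed the largest named role. GLYI7 was at 93.6, 83.9, 138 and 125 FPKM in WT on the ground and at 10.9, 9.35, 4.53 and 11 in flight, 12.3-fold lower, against 4.77-fold in bzip28bzip60. BCB, for a blue copper-binding protein that responds to oxidative stress and aluminium, was at 144, 83.5, 143 and 164 and at 19.9, 15.8, 11.5 and 21.3, 7.8-fold lower in WT and 3.32-fold in bzip28. For both genes the flight means of the 5 genotypes lay close together, from 8.95 to 12.5 FPKM for GLYI7 and from 12.6 to 17.4 FPKM for BCB, and the ground means differed more, from 58 to 110 and from 57.9 to 134.

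The germin-like genes GLP4 and GLP9 were the most uneven of this role. GLP9 ran from 6.8 through 27.3 to 121 FPKM in the ground libraries and from 3.06 through 5.38 to 16 in the flight libraries, and GLP4 from 3.79 through 19.1 to 72.6 and from 1.79 through 4.15 to 8.92. Within the bzip28 ground group GLP9 was at 14.5, 24.2, 94.3 and 82.5 and GLP4 at 8.17, 18.3, 68 and 72.6, so that replicates 3 and 4 were high for both genes. In this group replicates 1 and 2 were sequenced in lane 4 and replicates 3 and 4 in lane 3. The part of the lane was not tested. AT1G58320, a PLAC8 family gene outside this role, was at 3.72, 12.9, 59.2 and 45.2 in the same libraries. It had the widest ground spread of all members, 50.2-fold after rescaling, and 33 members spanned at most 3-fold. AT1G30700 and AT1G30730, for berberine bridge enzyme family proteins, were the only members within 3 annotated genes of each other, 5966 bases apart on chromosome 1. Their mean log2 ratios were -2.66 and -2.13. GSTU22, a tau-class glutathione transferase gene, had -1.79, the laccase gene LAC7 -1.74, GSTF3 -1.68, CYP81D11 -1.53, AT5G43450 -1.51, SDR3 -1.29 and SUFE2 -1.27.

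Among defence genes, KTI1, a Kunitz trypsin inhibitor gene, had a ground mean of 453 FPKM and a flight mean of 185, and UPI, a potato inhibitor I family gene, 165 and 42.4. The chitinase gene CHI was the most reduced of this role, with ground libraries from 8.57 through 17.8 to 49.2 FPKM and flight libraries from 2.32 through 3.68 to 8.51. DOX1, an alpha-dioxygenase gene, had a mean log2 ratio of -1.66, MLP-300B -1.94, AT4G10500 -1.8, AT1G72060 -1.46 and CCOAMT -1.38. In metal and ion transport PCR2, a zinc transport gene, had a ground mean of 194 FPKM and a flight mean of 74.1, and the heavy metal domain gene AT1G29100 and the cation exchanger gene CHX17 had mean log2 ratios of -2.65 and -1.68.

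Of the regulators, NAP was at 71.8, 55.2, 78.5 and 52.1 FPKM in WT on the ground and at 12.3, 11.6, 7.47 and 21.2 in flight. Its groups did not overlap except in bzip28, where the ground libraries were at 18.9, 21.7, 35.5 and 62.5 and the flight libraries at 8.21, 7.61, 18.3 and 23.5. CYCP2;1, a P-type cyclin gene, was lower, with ground libraries from 4.91 through 12.7 to 32.6 and flight libraries from 0.729 through 1.75 to 4.29. NAC046, another NAC gene linked to senescence, CCD8 of strigolactone synthesis and the zinc finger gene OZF1 had mean log2 ratios of -1.31, -1.43 and -1.40. Of the 3 genes annotated for salt or cold, SIS ran from 108 through 228 to 489 FPKM on the ground and from 28.9 through 41 to 160 in flight, the highest flight value being replicate 4 of bzip28. AT4G25580, a CAP160 family gene, and AT4G37220, a WCOR413 family gene, had mean log2 ratios of -2.56 and -1.62.

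The strongest reduction of all was in AT1G03106, an uncharacterised gene on chromosome 1 from 748101 to 749034. It was at 6.31, 8.08, 9.34 and 7.91 FPKM in WT on the ground and at 0, 0.585, 0.423 and 0.401 in flight, and its mean log2 ratio over genotypes was -3.85. AT2G26355, the long non-coding RNA on chromosome 2 from 11220708 to 11221535, was abundant, with 164 through 258 to 379 FPKM on the ground and 70.6 through 90 to 153 in flight. AT5G39520, a DUF1997 gene, ran from 3.21 through 7.8 to 12.8 and from 0.581 through 1.06 to 2.61. The weakest separation was in AT3G18250, whose groups were apart in 1 genotype only. The other 12 genes of this group had mean log2 ratios between -2.37 and -1.44.

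The 40 libraries were sequenced in 4 lanes according to the sample titles, with lane 1 holding only flight libraries and lane 3 only ground libraries. Within lane 4, 68 of 68 members were lower in flight in WT (1 library against 1), 67 in bzip28 (1 against 2) and 68 in ire1aire1b (2 against 2), with median log2 ratios of -2.13, -1.0 and -1.18. Of these, 67, 34 and 40 members were at most 0.5 of ground. Within lane 2, all 68 were halved in bzip60 (1 against 2), with a median of -2.57. No lane held both conditions for bzip28bzip60, where lane and flight cannot be told apart. The rule used these same libraries, so the counts within lanes are a description. The share of all loci lower or halved within a lane was not counted.

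The pathways that hold members were then read from gene lists, counting only listed genes that are not members. A gene is said to have fallen or risen when the difference between flight and ground, averaged over the 5 genotypes on the log2(FPKM + 1) scale, passed an adjusted p of 0.05 in limma in the same direction on the deposited and the rescaled values. Of 19186 tested genes 5.57% fell and 46.8% rose by this measure. In the dark and sugar starvation list 9 of 13 other genes fell and none rose. ASN1, for asparagine synthetase, changed from a mean of 151 to 69.2 FPKM (log2 -1.02, SE 0.17, limma adjusted p = 6.4e-07, rescaled -1.8), and TPS11, of the trehalose phosphate synthase family, from 91.9 to 49.1 (log2 -0.87). In amino acid breakdown 9 of 15 fell and none rose, among them PPDK, from 51 to 23.2 FPKM, and MCCA, for a methylcrotonyl-CoA carboxylase subunit, from 85.6 to 43.3. In senescence and chlorophyll breakdown 12 of 20 fell and 2 rose. The NAC genes NAC072 and NAC019 fell by 1.67 and 1.36 on the log2 scale, and SAG21, a late embryogenesis type gene, rose by 2.16. In abscisic acid and drought response, a list with no member, 10 of 13 fell and none rose, RD29A from 6.07 to 2.37 FPKM.

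In the glyoxylate cycle and beta-oxidation list 4 of 18 genes other than ICL fell and 1 rose. KAT2, a beta-oxidation thiolase gene, fell by 0.67, MLS, for malate synthase, the partner of isocitrate lyase, fell by 0.55 from 4.96 to 2.94 FPKM, and PMDH2 rose by 1.25. None of the 9 autophagy genes of the ATG8 family was called in limma in the same direction on both scales, as 6 were higher as deposited and 6 lower after rescaling. Among the other nitrilases NIT4 fell by 1.18 and NIT1 rose by 0.93, of which 0.15 was left after rescaling. Of 15 other tau-class glutathione transferases 3 rose and 4 fell. In the oxidative and mitochondrial stress list, which holds the member BCB, 2 of 7 other genes rose and 2 fell. In the phosphate starvation list 3 of 6 rose and 1 fell, and in the sulfur starvation list 1 of 2 rose. Of 13 targets of the unfolded protein response 10 rose and none fell, HSP90.7 from 33.6 to 92.6 FPKM. Summed markers of 2 other tissues were also read. The 5 shoot epidermis markers summed to 34.5 to 191 FPKM on the ground and 416 to 801 in flight, with medians of 71.3 and 545, and after rescaling the medians were 103 and 421. Taken singly, 4 of these 5 rose, and 1 was called lower by limma after rescaling only. The 7 root hair markers, of which 5 were tested and 4 rose, summed to 2.67 to 21.7 and 9.77 to 43.1, with medians of 7.98 and 20.5. After rescaling their ranges overlapped, from 4.2 to 20.9 on the ground and 7.32 to 30.95 in flight with medians of 11.4 and 16.4, and in bzip28bzip60 the medians were 12.5 and 13.5. Their part in the values of the members was not tested.

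Whether the mutations alter these genes within a condition was read next. The rule did not compare mutants with WT, but it used the mean of every group that enters these comparisons. The member counts below are therefore not independent of the rule. As deposited, the median locus was higher in flight by 0.82 in WT and by 0.24 in bzip60 on the log2 scale. Fewer loci were halved in WT, 2.3% against 4.65% in bzip60. How far the rule shaped the member counts, on the ground or in flight, was not tested. Each mutant was compared with WT on the ground and in flight, 8 comparisons that share the 4 WT libraries of their condition, and p-values were adjusted over all 19186 tested genes. In flight no member differed from WT in any mutant by limma at an adjusted p of 0.05, on either scale. At an unadjusted limma p under 0.05 there were 2 members in bzip28, 3 in bzip28bzip60 and 1 each in bzip60 and ire1aire1b as deposited, and 7, 7, 5 and 3 rescaled. Of all 19186 genes, 414 passed that limit in bzip28, 429 in bzip28bzip60, 420 in bzip60 and 302 in ire1aire1b as deposited. Rescaled there were 643, 1002, 951 and 727 genes in the same order. The member medians of mutant minus WT in flight, as deposited and on the log2 scale, were 0.16 for bzip28, 0.17 for bzip28bzip60, -0.0044 for bzip60 and 0.13 for ire1aire1b. At a limma adjusted p of 0.05, 0.162% of all tested genes differed from WT in flight in bzip28 as deposited and 0.182% rescaled. The shares were 0.156% and 0.25% for bzip60, 0.177% and 0.318% for bzip28bzip60, and 0.172% and 0.235% for ire1aire1b.

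On the ground the clearest difference was in BCB. Its ground libraries were at 144, 83.5, 143 and 164 FPKM in WT, 28.3, 63, 37.8 and 102 in bzip28, 82.6, 41.9, 52.6 and 58.6 in bzip60, 41, 41.4, 85.6 and 70.9 in bzip28bzip60 and 36.5, 104, 94 and 71.5 in ire1aire1b. Replicate 2 of WT lay below 1 library each of bzip28 and bzip28bzip60 and 2 of ire1aire1b, and above every bzip60 library. BCB fell in bzip60 by 1.17 on the log2 scale (SE 0.31, limma adjusted p = 0.00273; rescaled -1.8, adjusted p = 2.2e-05), and each of the 8 fits without 1 library kept that call. It fell in bzip28 by 1.32 (SE 0.31, limma adjusted p = 0.0271; rescaled -1.11, adjusted p = 0.00799), and 5 of the 8 fits without 1 library lost that call as deposited, with adjusted p up to 0.219 without replicate 1 of bzip28. In bzip28bzip60 the difference was -1.18 (limma adjusted p = 0.056 as deposited, 0.00139 rescaled). In ire1aire1b BCB did not pass on either scale (limma adjusted p = 0.173 rescaled).

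GLYI7 was the other gene called on both scales. Its ground libraries were at 93.6, 83.9, 138 and 125 FPKM in WT and at 76.9, 71.7, 49.8 and 54.2 in bzip60, with no overlap. It fell in bzip60 by 0.79 (SE 0.32, limma adjusted p = 0.0322; rescaled -1.42, adjusted p = 0.00101). The call as deposited was lost without replicate 3 or 4 of bzip60 or of WT, at adjusted p of 0.0666 to 0.0849.

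The counts over the members depended on the scale, and the rule that chose the members used these same group means. In bzip28 compared with WT on the ground, BCB was the only member called on either scale (1.47% of members, against 0.683% of all genes lower as deposited and 2.2% rescaled). That count was 0 as deposited without replicate 1 or 3 of bzip28 or replicate 1, 3 or 4 of WT, and 2 without replicate 4 of bzip28. For bzip60 against WT on the ground, 11 members were higher and 2 lower as deposited, where 69.8% of all genes were higher and 0.25% lower. The share of higher members was 16.2%. They were AT1G58320, GLP9, AT1G53625, AT3G24420, GSTU22, CCOAMT, CHX17, SDR3, AT2G26355, AT4G16190 and GAT1_2.1, and the member median was 0.29 against 0.55 for all tested genes. After rescaling no member was higher and 13 were lower (19.1%, against 2.26% of all genes higher and 2.36% lower), with a member median of -0.33 against 0.01. BCB and GLYI7 were the 2 lower on both scales, as were 0.229% of all genes. The 13 were BCB, GLYI7, AT5G39520, NIT2, DIN2, THA1, AT2G31945, BETA-TIP, SWEET2, BCAT-2, AT4G32870, AT1G21400 and AAT1. The count of higher members as deposited was 2 without replicate 2 of WT, 7 without replicate 1 of WT and 6 without replicate 2 of bzip60. The rescaled count of lower members was 7 without replicate 2 or 3 of bzip60, 6 without replicate 3 of WT and 5 without replicate 4 of WT.

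For bzip28bzip60 against WT on the ground, no member was called as deposited (limma, 7 at an unadjusted p under 0.05, with 0.891% of all genes called in either direction). After rescaling 8 members were lower and none higher (11.8%, against 1.11% of all genes lower), with a member median of -0.28 against 0.01. The 8 were BCB, GLYI7, AT5G39520, AT1G30700, NIT2, AT2G31945, AT4G32870 and AAT1. This count was 2 and 4 without replicates 1 and 2 of the mutant and 1 and 3 without replicates 3 and 4 of WT. For ire1aire1b against WT on the ground no member was called by limma on either scale. Of all genes, 0.136% were called in either direction as deposited and 0.485% rescaled. At an unadjusted limma p under 0.05 there were 3 members and 593 of 19186 genes as deposited, and 6 members and 2079 genes rescaled. The difference between the mutants in these counts was not tested.

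**Figure D5:**
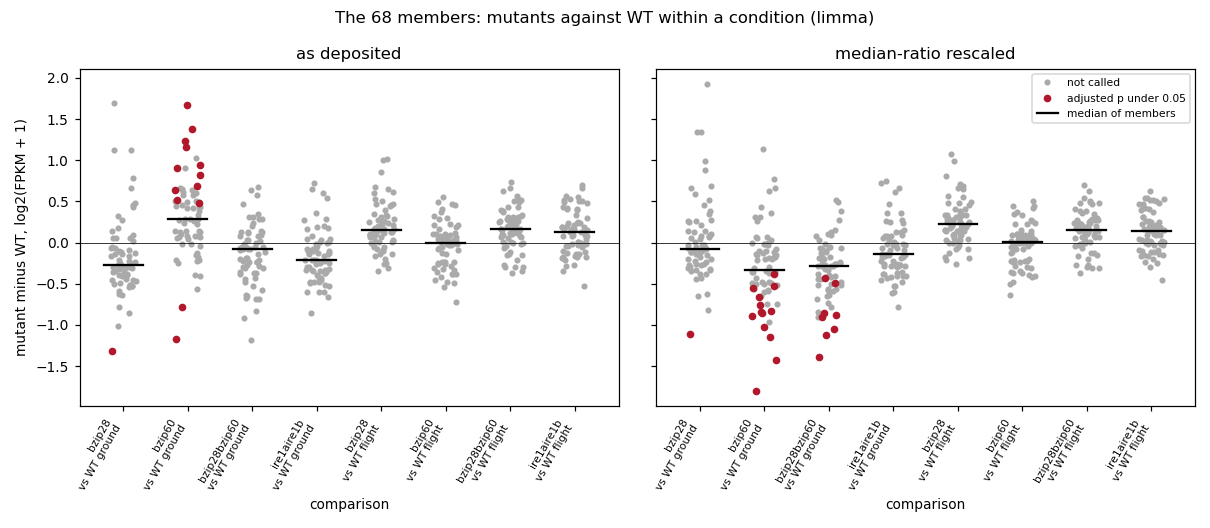
Each point is 1 of the 68 members, with the difference of mutant minus WT in log2(FPKM + 1) for the 4 mutants on the ground and in flight, as deposited on the left and rescaled on the right. Red points passed a limma adjusted p of 0.05 and black lines are member medians. In bzip60 on the ground 11 members are called higher and 2 lower on the left, and 13 lower on the right, and no point is called in flight.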

How the data were processed

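The authors deposited 1 table of FPKM values for 34133 loci in 40 libraries. Another 4 labelled samples have no column. Per the submitters' processing notes, reads were handled with FastQC 0.11.5, cutadapt 1.8.1, Bowtie2 2.2.4, TopHat2 2.0.14 and Cufflinks 1.3.0 against TAIR10. Read depth is unknown, so precision rests on the 4 libraries per group, and p-values measure the spread between these libraries. The members and lists were chosen with earlier results of these data known. The 19186 genes with a mean of at least 1 FPKM were taken to log2(FPKM + 1) and fitted with limma 3.58.1 in R 4.3.3 (10 group means, 30 residual degrees of freedom, Benjamini-Hochberg adjustment per comparison). On simulated data for bzip28 against WT on the ground, 85 of 100 genes changed by 1 and 98 of 100 changed by 2 on the log2 scale were recovered, with 9 false calls, over 19186 genes. The simulation drew noise for each gene separately, without shifts shared by a whole library, and altered only more abundant genes. Its rates therefore need not hold for the real libraries. Named genes were the 12 most reduced members, the 10 most abundant on the ground, up to 4 members per list, members called in the mutants on both scales, adjacent members and those nearest the limit; the remaining members were named afterwards to account for all. Names and promoters came from RefSeq TAIR10.1, whose release may differ from the authors' annotation. Sequencing lanes came from the sample titles. Alternatives were median-ratio rescaling, FPKM per 1000000 without AT2G01021, a pseudocount of 0.1, no filter, a replicate block, a lane term, group medians, other ground minimums and leaving out each library.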

Additional observations from a re-analysis of the deposited data

Results flagged for a closer look

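In 14 of 350 groups of 4 libraries looked at, 1 library lay far from the other 3, and chance alone gives about 1 in 20. Replicate 2 of bzip28bzip60 in flight was high for DIN2 (32.2 FPKM, the others at 20.1 to 20.7), for THA1 (30.2) and for BCAT-2 (85). Replicate 4 of bzip28bzip60 on the ground was high for DIN2 (110, the others at 63.2 to 68) and for the median FPKM of the members (38.4). Replicate 2 of WT on the ground was low for UPI (116, the others at 221 to 229), AT1G30730 (5.44) and SDR3 (19). SIS was high in replicate 4 of bzip28 on the ground (434), AT1G58320 in replicate 3 of bzip28 in flight (5.88) and BCB in replicate 1 of bzip60 in flight (14.3). The member median was low in replicate 3 of WT in flight (4.68), the flight library with the largest share of AT2G01021, and high in replicate 1 of bzip60 in flight (6.52). AT2G01021 took 83.9% of FPKM in replicate 1 of ire1aire1b on the ground.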

How the results depend on the processing

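The rule gave 506 loci on rescaled values, with 67 of the 68 members among them, 545 per 1000000 FPKM without AT2G01021, 134 with a ground minimum of 1 FPKM, and 49 to 78 without 1 library. Median log2 ratios of the members were -2.82 rescaled and -2.82 per 1000000 in WT, -2.51 and -2.47 in bzip28, -2.60 and -2.58 in bzip60, -2.27 and -2.25 in bzip28bzip60, and -2.47 and -2.43 in ire1aire1b. In bzip60 lane 2 alone gave -2.57. Without 1 library they ran from -2.08 to -1.77 in WT, -1.79 to -1.27 in bzip28, -2.48 to -2.24 in bzip60, -1.66 to -1.38 in bzip28bzip60 and -1.82 to -1.36 in ire1aire1b. Against WT on the ground, members called higher in bzip60 numbered 0 rescaled, 7 with no filter, 6 with a lane term and 2 to 16 without 1 library, and members called lower 13 rescaled, 1 with no filter and 1 to 3 without 1 library. Members called lower in bzip28bzip60 numbered 8 rescaled, 1 with a pseudocount of 0.1, 1 with a lane term and 0 to 1 without 1 library, and in bzip28 0 to 2 without 1 library. On rescaled values the lower counts without 1 library ran from 1 to 2 in bzip28, 5 to 15 in bzip60 and 1 to 10 in bzip28bzip60. In-flight counts were 0 under every alternative run. The lane term and the refits on rescaled values were chosen after seeing the data. The cause of these shifts was not tested.

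Same-numbered mutant and WT libraries within a condition were checked for pairing, and flight with ground pairs and the position codes in the titles were not used. Of these 32 pairs 7 had deviations correlated above 0.1, with r from -0.16 to 0.21. With the replicate block, 12 members were called higher in bzip60 on the ground in place of 11, and on rescaled values 1 was called higher in bzip28 in place of 0 and 2 lower in place of 1. Without the filter GLYI7 in bzip60 missed the threshold (limma adjusted p = 0.0557). Rescaling takes the typical gene as unaltered, and depth is unknown, so low values such as the listed zeros of M10 have no counting interval.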
